A study of Mus musculus with 16 samples.

Results

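Fibroblasts and adipose progenitors are the mesenchymal cells of fat: they lay down its matrix and supply new adipocytes. The 10 genes described here (Pdgfra, Pdgfrb, Dpp4, Pi16, Cd34, Ly6a, Dcn, Lum, Fap and Icam1) mark these cells, were taken from the table by symbol, and make up 10 of its 20101 genes. All 10 had an entry, and all 10 stood at 1 FPKM or more in every library (FPKM is a fragment count scaled by transcript length and by library size). The tissue sequenced was epididymal white fat (eWAT), the pad beside the epididymis, from 16 mice aged 21 weeks, with 4 mice in each of 4 groups. WT and KO mice each ate chow (5% fat) or, from 5 weeks of age, a high-fat diet (HFD, 60% fat). The titles say KO where the genotype field says ApoA4 knockdown, and the sources used here do not say how the allele was made or in which cells it acts.

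The labels name whole tissue, so each value sums over adipocytes, stroma, vessels and immune cells, and fewer cells of a type and less RNA per cell cannot be told apart. The gene that the genotype label names goes against that label. Apoa4, the gene of a lipid-binding plasma apolipoprotein, ranged from 0 to 0.29 FPKM over the WT-labelled libraries and from 1.96 to 9.63 FPKM over the KO-labelled ones. The names WT and KO therefore stand for labels only. All 12 adipocyte markers looked up, among them Adipoq and Plin1, had reads in every library. Their summed level was 18363 to 21367 FPKM in chow WT, 9919 to 26651 FPKM in chow KO and 996 to 8389 FPKM over the HFD libraries. RNA of the epididymis was present in 3 libraries: summed over 13 epididymal genes, the share of FPKM was 2.97% for replicate 2 of chow KO, 1.26% for replicate 4 of HFD KO, 0.0792% for replicate 2 of HFD KO and no more than 0.0091% elsewhere. For the 10 genes, diet calls that changed without these 3 libraries are given with and without them. Diet differences of ratios are not given without all 3. The counts of the other gene lists without these libraries stand together after those lists.

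In fat, interstitial progenitors that carry DPP4 and the secreted protein PI16 lie in the connective tissue around the lobules, and are known to give rise to ICAM1-bearing committed preadipocytes, which form adipocytes. PDGFRA, CD34 and SCA-1 (the product of Ly6a) are used to sort both stages. PDGFRB is shared by progenitors and by the mural cells of vessels, while decorin and lumican bind collagen fibrils and FAP is a surface protease of activated fibroblasts. Several markers are not exclusive: Cd34, Ly6a and Icam1 are also made by endothelium, Icam1 by macrophages and Dpp4 by T cells.

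Icam1 and Dpp4 name the later and the earlier stage and moved in opposite directions with diet in WT-labelled mice, so the sequences directly upstream of their annotated starts are shown, from RefSeq on GRCm38.p6. The Icam1 stretch is chr9:21015690-21015939 on the plus strand (250 bases), and the Dpp4 stretch chr2:62412316-62412481 on the minus strand (166 bases). Capitals mark matches on either strand to 5 motifs that were searched. The GC box was spelled GGGCGG and the TATA box was spelled TATAAA. The box bound by NF-Y was spelled CCAAT, an AP-1 site was read as TGANTCA, and a form of the NF-kB site was read as GGAANTTCC.
Icam1: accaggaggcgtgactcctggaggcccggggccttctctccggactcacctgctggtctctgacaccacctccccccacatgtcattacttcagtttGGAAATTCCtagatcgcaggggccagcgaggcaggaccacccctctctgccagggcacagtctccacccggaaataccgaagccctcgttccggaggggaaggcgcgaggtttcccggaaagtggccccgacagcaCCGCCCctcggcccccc
Dpp4: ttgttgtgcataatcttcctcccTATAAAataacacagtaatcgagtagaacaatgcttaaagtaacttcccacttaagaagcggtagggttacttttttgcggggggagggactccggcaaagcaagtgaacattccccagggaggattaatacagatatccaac
Icam1 holds GGAAATTCC, starting 153 bases before the gene's start, and CCGCCC, a GC box on the opposite strand, starting 17 bases before it. Dpp4 holds TATAAA, 143 bases before its annotated start. Among 32851 promoter windows of 250 bases, 0.813% hold the NF-kB form, 32.7% the GC box, 12.4% the TATA box, 33.8% CCAAT and 6.75% the AP-1 letters. The Dpp4 stretch is shorter than these windows. A match describes the letters and shows no binding.

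On the high-fat diet, some genes of the list rose and others fell in WT-labelled mice. In WT-labelled mice Lum, Icam1 and Pdgfrb rose, Dpp4 and Dcn fell, and Fap, Pdgfra, Pi16, Cd34 and Ly6a did not pass the test. Thus 5 of 10 genes changed, 3 higher and 2 lower, against 41.9% of the 12667 genes tested (24.6% higher and 17.2% lower). The call was an adjusted p below 0.05 (Benjamini-Hochberg, all tested genes) from limma on log2(FPKM + 1). All differences below are on that log2 scale, with their SE. The median difference of the 10 genes was 0.24, beside 0.063 over all genes. In KO-labelled mice the same 3 genes rose and 0 fell, against 38.9% of all genes called (23.5% higher and 15.3% lower), with a median of 0.08 beside 0.082. The share of the list that was called is near the background in both genotypes. Directions differed within the list, as they did over all genes, and the plot of differences with their intervals shows them.

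**Figure D1:**
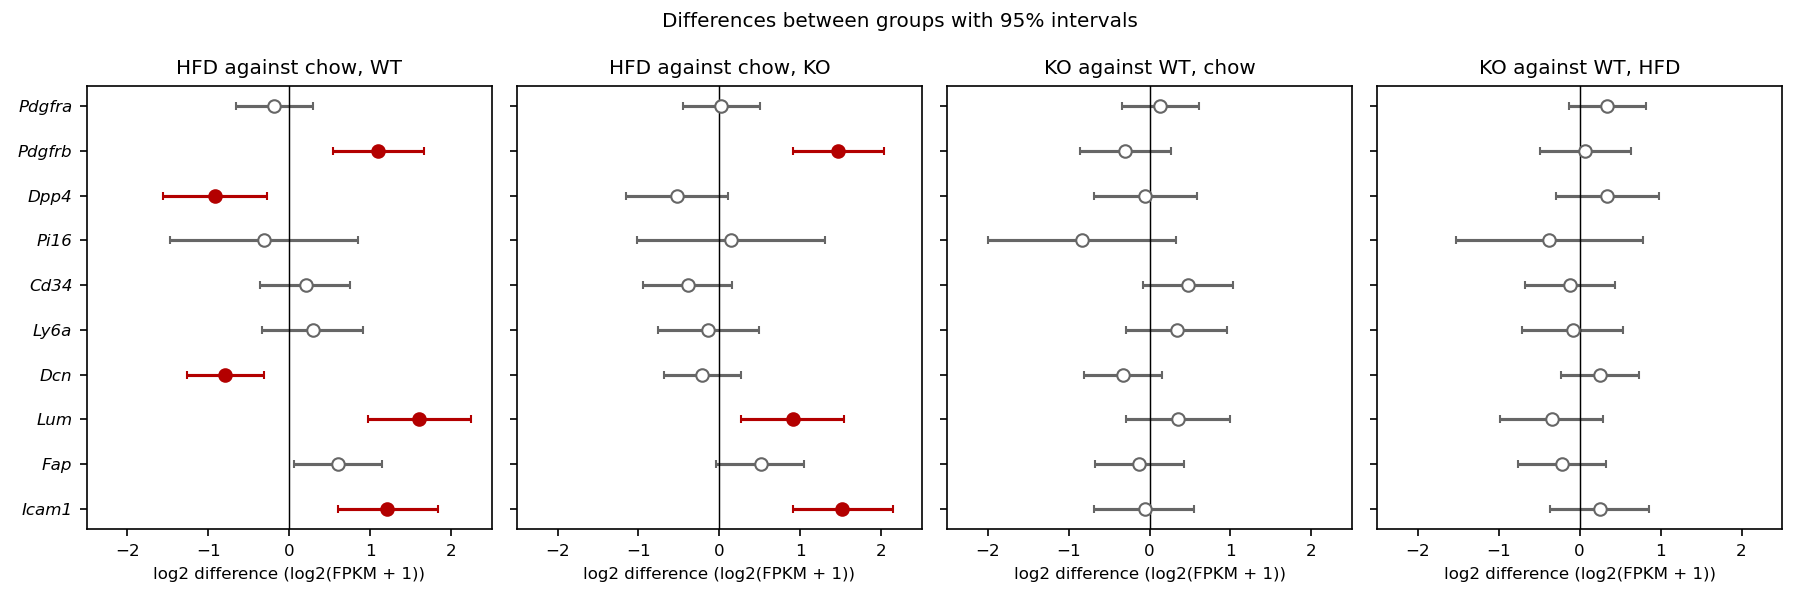
Log2 differences of the 10 genes in 4 comparisons of groups, with 95% intervals that are not adjusted for the number of genes (x axis, log2(FPKM + 1) scale); filled red points passed an adjusted p of 0.05 over all genes, open grey points did not. Pdgfrb, Lum and Icam1 lie to the right in both diet comparisons, Dpp4 and Dcn to the left in WT, and 0 points are filled in the genotype comparisons.

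Pdgfra (Entrez 18595, chromosome 5, 75151322 to 75198206 on GRCm38.p6) and Pdgfrb (Entrez 18596, chromosome 18) encode the receptor tyrosine kinases for platelet-derived growth factors. Pdgfrb stood at 10.98, 9.30, 11.65 and 9.41 FPKM in chow WT and at 20.01, 20.83, 31.10 and 22.28 FPKM in HFD WT, in order of replicate. In KO-labelled mice it stood at 12.60, 7.83, 6.12 and 7.25 FPKM on chow and at 38.93, 18.64, 32.02 and 15.01 FPKM on HFD. Every HFD library lay above every chow library. Pdgfrb rose by 1.1 in WT (SE 0.26, limma adjusted p = 0.00431) and by 1.47 in KO (SE 0.26, adjusted p = 0.000923). Pdgfra ranged only from 15.68 to 28.60 FPKM in 15 libraries, with 40.19 FPKM in chow KO replicate 2, the library with most epididymal RNA. Its diet differences were -0.19 (95% interval -0.66 to 0.29) in WT and 0.02 (-0.45 to 0.50) in KO, neither past the test (adjusted p = 0.530 and 0.942). Without the 3 libraries with epididymal RNA, Pdgfra was called higher on HFD in KO, by 0.47 (adjusted p = 0.0448), a fit with chow KO replicates 1, 3 and 4 against HFD KO replicates 1 and 3. Pdgfra was also called higher in KO without the 2 libraries with most epididymal RNA, and with array weights over all 16 libraries.

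The balance of the receptors shifted. Within a library, where the ratio does not depend on library scaling, Pdgfrb was 0.444 to 0.506 times Pdgfra in chow WT and 0.195 to 0.538 times in chow KO. On HFD the ratio was 0.957 to 1.84 in WT and 0.750 to 1.36 in KO. All 8 HFD libraries had a higher ratio than all 8 chow libraries. The log2 ratio rose by 1.36 over both genotypes (exact permutation test within genotype, two-sided, p = 0.000408, the smallest it can give; adjusted p = 0.00245 over 12 ratio tests). Mural markers, with which Pdgfrb is shared, rose in 2 of 10 cases in WT and 3 of 10 in KO, near the 24.6% and 23.5% of all genes that were higher, with median differences of -0.27 and 0.78. From 1 to 3 of them were called lower in WT under 12 of 29 alternatives (3 with array weights). Notch3, a receptor of mural cells, rose by 1.21 in WT and 1.29 in KO, and Cspg4, the NG2 proteoglycan, by 1.20 in WT and, short of the threshold, differed by 0.56 in KO. The remaining mural genes were not called in WT. They were Acta2 (-1.25), Rgs5 (-0.67), Higd1b (-0.66), Kcnj8 (-0.39), Myh11 (-0.32), Tagln (-0.22), Abcc9 (-0.12) and Des (0.24). In KO Acta2 (2.30) and Tagln (1.83) rose. Myh11 (1.64), Des (1.01), Abcc9 (0.09), Kcnj8 (-0.04), Higd1b (-0.59) and Rgs5 (-0.72) were not called there. The summed mural level overlapped between diets (109 to 414 FPKM on chow, 105 to 1288 FPKM on HFD, the highest in HFD KO replicate 2), and its part in the Pdgfrb result was not tested. Of the 4 ligand genes, Pdgfb, which binds both receptors, rose from 3.37 to 17.9 FPKM in WT (difference 2.05, adjusted p = 7.76e-05) and from 4.35 to 14.2 FPKM in KO (1.52). Pdgfa, a ligand of PDGFRA, rose in WT (1.31, adjusted p = 0.000271) and differed by 0.52 in KO (adjusted p = 0.0585). The KO difference was called under 7 of 29 alternatives, among them without chow KO replicate 2 (0.72, adjusted p = 0.00529), without HFD KO replicate 3 (0.67, 0.0243) and without the 3 libraries with epididymal RNA (0.56, 0.0217). Pdgfc and Pdgfd did not pass in either genotype, with differences from -0.25 to 0.14.

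Dcn (Entrez 13179, chromosome 10, 97479500 to 97518163) and Lum (Entrez 17022, 97565501 to 97572703) encode decorin and lumican, small leucine-rich proteoglycans that bind collagen fibrils. The genes are neighbours on the same strand, 47.3 kb apart, with 0 protein-coding genes between them. Dcn stood at 1065.03, 792.34, 916.42 and 785.85 FPKM in chow WT and 520.07, 513.16, 366.13 and 696.47 FPKM in HFD WT. It was thus lower in all 4 HFD WT libraries, and fell by 0.79 (SE 0.22, adjusted p = 0.0118). In KO-labelled mice Dcn stood at 935.42, 686.52, 628.96 and 606.73 FPKM on chow and 448.16, 648.61, 585.91 and 800.32 FPKM on HFD. These groups overlapped, with a difference of -0.21 (adjusted p = 0.479).

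Lum went the other way. It stood at 40.79, 28.26, 44.22 and 34.39 FPKM in chow WT and 76.56, 134.30, 114.42 and 136.40 FPKM in HFD WT, a rise of 1.60 (SE 0.30, adjusted p = 0.000842). In KO-labelled mice it stood at 64.27, 46.48, 41.82 and 38.01 FPKM on chow and 156.60, 84.67, 98.25 and 46.84 FPKM on HFD. Lum rose there by 0.91 (SE 0.30, adjusted p = 0.0260), although HFD KO replicate 4 lay among the chow libraries. The KO call ended without chow KO replicate 3 (0.86, adjusted p = 0.0640) or 4 (0.81, 0.0730) and without HFD KO replicate 1 (0.64, 0.0914) or 3 (0.86, 0.0640). It also ended when the KO groups were fitted alone (adjusted p = 0.0746).

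The level of Lum was 0.0357 to 0.0483 times that of Dcn in chow WT, 0.0626 to 0.0687 times in chow KO, 0.147 to 0.313 times in HFD WT and 0.0585 to 0.349 times in HFD KO. Only the HFD KO replicate 4 value of 0.0585 fell within the chow range. Over both genotypes the log2 ratio rose by 1.75 on HFD (exact permutation p = 0.00204, adjusted p = 0.00816 over 12 ratio tests). The genotype differences of this ratio had opposite signs, 0.68 on chow, where the groups did not overlap, and -0.59 on HFD, where they did; whether the diets differ in it was not tested. By mean level per length, Lum moved from the fifth place of the 10 genes in chow WT (36.9 FPKM, where its values overlapped those of Cd34 and Pi16) to the third in HFD WT (115 FPKM, overlapping Ly6a), while Dcn was the most abundant of the 10 in every library.

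Other genes of the proteoglycan family were called in both directions. Of 13 listed, 10 were tested, and 1 rose and 2 fell in either genotype. Over all genes 24.6% rose and 17.2% fell in WT, and 23.5% rose and 15.3% fell in KO. Bgn (biglycan) rose by 1.03 in WT and 1.56 in KO. Ogn (osteoglycin) fell by 1.36 and 0.88, and Podn (podocan) by 1.81 and 1.68. Epyc, which like Kera is a family member that lies beside Lum and Dcn, differed by 0.33 in WT and 0.34 in KO and did not pass, and Kera was under the filter.

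Dpp4 (Entrez 13482, chromosome 2, 62330073 to 62412315) and Fap (Entrez 14089, 62500936 to 62575509) encode sister surface serine peptidases that cut after proline. They lie 88.6 kb apart, with Gcg, the proglucagon gene, as the 1 protein-coding gene between them. Dpp4 stood at 14.82, 11.31, 12.66 and 10.07 FPKM in chow WT and 7.23, 7.63, 3.42 and 6.32 FPKM in HFD WT. The groups did not overlap, and Dpp4 fell by 0.92 (SE 0.30, adjusted p = 0.0226). The call ended without chow WT replicate 1 (-0.83, adjusted p = 0.0630) or 3 (-0.90, 0.0503) or HFD WT replicate 3 (-0.70, 0.0819). In KO-labelled mice Dpp4 stood at 11.81, 16.32, 9.37 and 10.14 FPKM on chow and 5.28, 8.55, 4.90 and 15.71 FPKM on HFD. The highest value on each diet belonged to the library of that group with most epididymal RNA. With all libraries the difference was -0.53 (adjusted p = 0.173). Without chow KO replicate 2 and HFD KO replicate 4 it was -0.69 (adjusted p = 0.0335), and without HFD KO replicate 4 alone -0.84 (adjusted p = 0.0142). Dpp4 was also called lower in KO without all 3 libraries with epididymal RNA and with array weights.

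Fap stood at 2.7, 3.09, 3.49 and 2.89 FPKM in chow WT and 5.87, 4.75, 5.37 and 4.54 FPKM in HFD WT. Although these groups did not overlap (46.9% of all genes did not), the difference of 0.60 was short of the threshold (SE 0.25, adjusted p = 0.0705). In KO-labelled mice Fap stood at 2.76, 1.92, 3.38 and 2.87 FPKM on chow and 7.54, 2.44, 6.38 and 2.5 FPKM on HFD. HFD KO replicates 1 and 3 were above every chow library, and replicates 2 and 4 were within the chow range. Epididymal genes held 0.0792% of FPKM in replicate 2 and 1.26% in replicate 4, and their part in the low Fap values was not tested. The KO difference was 0.51 (adjusted p = 0.127). Without the 3 libraries with epididymal RNA it passed in KO (0.99, adjusted p = 0.000240). That fit set chow KO replicates 1, 3 and 4 against HFD KO replicates 1 and 3, so the low HFD KO values were left out. Fap then also passed in WT, where the value stayed at 0.60 and the pooled spread shrank (adjusted p = 0.000854). Fap was likewise called in WT when these groups were fitted alone (adjusted p = 0.00274), with array weights (0.0126) and with a replicate block (0.0484).

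The ratio of Fap to Dpp4 was 0.182 to 0.287 in chow WT, 0.118 to 0.361 in chow KO and 0.623 to 1.57 in HFD WT. In HFD KO it was 1.43 and 1.3 in replicates 1 and 3 and 0.285 and 0.159 in replicates 2 and 4. The log2 ratio rose by 1.28 on HFD (exact permutation p = 0.00449, adjusted p = 0.0135 over 12 ratio tests), a call that ended without chow KO replicate 2 (1.15, adjusted p = 0.0612). Among other prolyl peptidases 0 of 4 tested fell, where 17.2% of all genes fell in WT and 15.3% in KO. Dpp7, Dpp9 and Prep rose in both genotypes, by 0.48 to 1.13, and Dpp8 differed by 0.09 and 0.02. Dpp9 kept both calls under all 29 alternatives. In WT the Dpp7 call ended under 14 of them, among them without any 1 chow WT library (0.87 to 0.98, adjusted p from 0.0616 to 0.0921), and both the Dpp7 and the Prep call ended with quantile normalization and without chow WT replicate 1, 2 or 3 or HFD WT replicate 2 or 3. In KO the Dpp7 call ended without HFD KO replicate 1 (0.94, adjusted p = 0.0616), and the Prep call when the KO groups were fitted alone (0.57, 0.0643). T and NK cell markers, since T cells carry DPP4, are given beside Dpp4. In WT 4 of 8 tested fell, among them Cd2 (-1.39) and Cd3e (-0.96), beside 17.2% of all genes (15.3% in KO). Only 1 rose, the cytokine receptor gene Il7r (3.39), where 24.6% of all genes rose. In KO 0 fell and Il7r rose (3.44). Their summed level was 15.8 to 31.1 FPKM on chow and 29.8 to 67.1 FPKM on HFD, with 0 of the 9 genes that had an entry at 0 in any library. That sum holds Il7r, whose mean went from 2.79 to 41.8 FPKM in WT and from 1.88 to 31.7 FPKM in KO. The rise of the sum therefore does not stand for the other T and NK markers. The part of T and NK cells in the Dpp4 result was not tested.

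**Figure D2:**
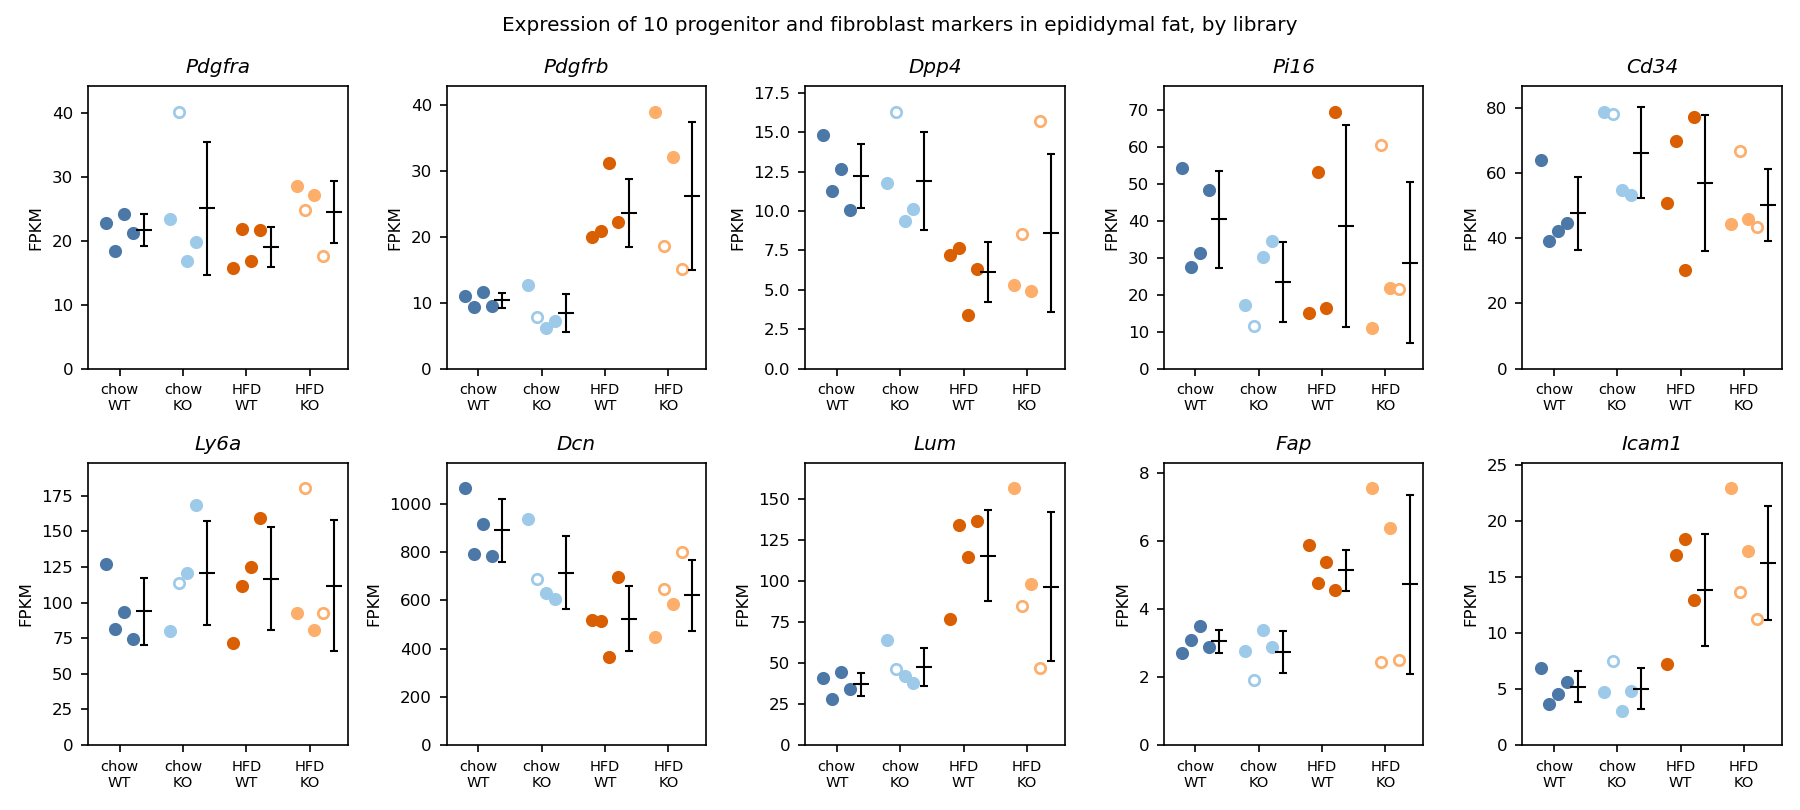
FPKM of each of the 10 genes (y axes start at 0) in WT and KO mice on chow and on HFD. Each circle is 1 library in order of replicate, open circles are the 3 libraries with epididymal RNA, and the bar beside each group is its mean with SD (n = 4). Pdgfrb shows no overlap between diets, Pi16 spans 10.98 to 69.56 FPKM on HFD, and the open circles of HFD KO are the 2 low values of Fap.

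Icam1 (Entrez 15894, chromosome 9, 21015940 to 21028814) encodes the adhesion molecule that leukocyte integrins bind, and in fat marks committed preadipocytes. It stood at 6.89, 3.70, 4.58 and 5.58 FPKM in chow WT and 7.18, 16.90, 18.34 and 12.91 FPKM in HFD WT. In KO-labelled mice it stood at 4.73, 7.45, 3.04 and 4.82 FPKM on chow and 22.90, 13.64, 17.26 and 11.20 FPKM on HFD. The diets did not overlap in either genotype (in KO, 28.7% of all genes did not), with HFD WT replicate 1 just above the highest chow WT library. Icam1 rose by 1.21 in WT (SE 0.29, adjusted p = 0.00416) and 1.52 in KO (SE 0.29, adjusted p = 0.00131). Relative to Dpp4, Icam1 was 0.324 to 0.554 times as abundant in chow libraries, 0.993 to 5.36 times in HFD WT and 0.713 to 4.34 times in HFD KO. The log2 ratio rose by 2.09 (exact permutation p = 0.000408, adjusted p = 0.00245 over 12 ratio tests), and all 8 HFD libraries lay above all 8 chow libraries.

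Macrophage markers moved with Icam1. All 11 rose in both genotypes, and their summed level was 979.6 to 1374 FPKM on chow and 2328 to 10803 FPKM on HFD. HFD WT replicate 1 was the lowest HFD library for both the macrophage sum (2328 FPKM) and Icam1, and HFD WT replicate 3 the highest of its group for both. Endothelial markers, by contrast, passed in 0 of 12 cases in WT and 2 of 12 in KO, beside 41.9% and 38.9% of all genes. Their sums were 89.2 to 228 FPKM on chow and 91.1 to 283 FPKM on HFD. No gene of either list was at 0 in any library. The part of either cell type in the Icam1 result was not tested. Of 9 listed ICAM relatives and partners 6 were tested. Itgb2 (3.11 in WT, 3.28 in KO) and Itgam (2.53, 2.48), which encode the integrin chains of the leukocyte receptor Mac-1 that binds ICAM1, rose, as did Itga4 (1.05, 1.35). Vcam1, the partner of Itga4, rose in KO (0.96, adjusted p = 0.00821) and differed by -0.12 in WT, a difference between genotypes of 1.08 that did not pass (adjusted p = 0.271). It passed with array weights (1.48, adjusted p = 0.0198) and without the 3 libraries with epididymal RNA (1.67, adjusted p = 0.0244). Icam2 and Itgal did not pass in either genotype.

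Other markers of committed preadipocytes that were called mostly fell, unlike Icam1. Of 11 tested, 1 rose and 5 fell in WT, beside 24.6% and 17.2% of all genes. In KO 0 rose and 4 fell, beside 23.5% and 15.3% of all genes. Col15a1, a basement membrane collagen, rose in WT (1.21). The means of Col4a2 went from 124 to 202 FPKM in WT and from 85.1 to 131 FPKM in KO. Those of Col4a1 went from 196 to 247 FPKM and from 142 to 167 FPKM, and neither gene was called. Pparg, the master regulator of adipocyte formation, fell by 1.33 and 1.54, and Apoe, an apolipoprotein also made by macrophages, fell by 1.15 in WT. Fabp4, Aoc3 and Cebpa fell in both genotypes, by 0.92 to 1.37. The Fabp4 calls ended without chow WT replicate 2 or 4 or HFD WT replicate 2 or 3 in WT, and in KO without chow replicate 1, 3 or 4 and also without HFD replicate 1, 2 or 3; with quantile normalization its differences were -0.31 and -0.35. The Aoc3 calls ended without HFD WT replicate 2 or 3 in WT and without HFD KO replicate 1 in KO. Most of these genes are also expressed by mature adipocytes, whose own 12 markers fell in 7 cases in WT and 9 in KO.

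**Figure D3:**
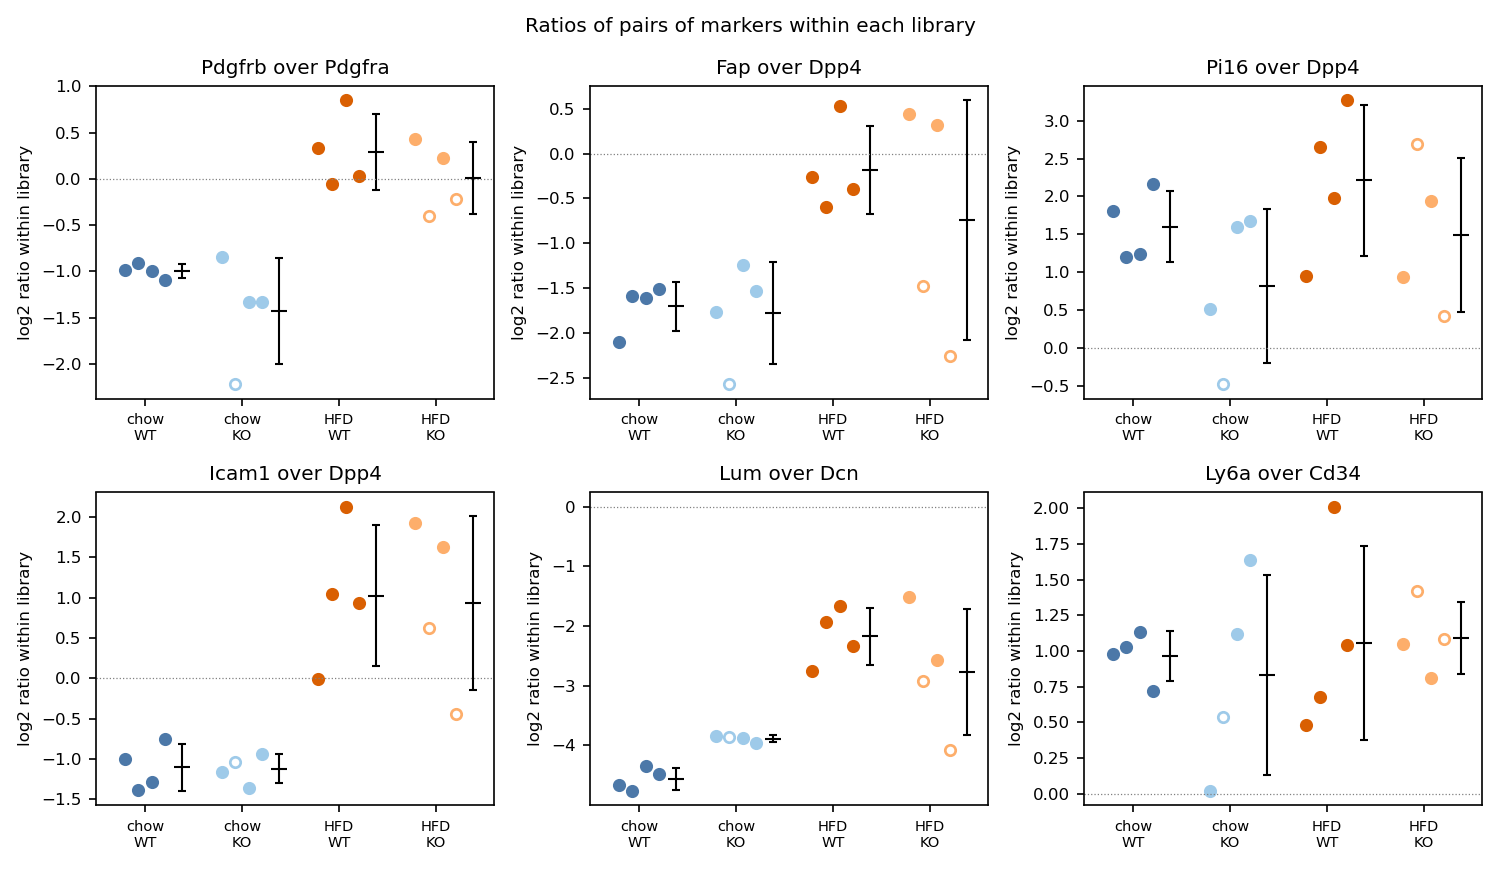
Log2 ratios of 6 pairs of genes within each library (y axes differ; dotted line, equal levels), by group; circles are libraries, open circles those with epididymal RNA, and bars the mean with SD (n = 4). Pdgfrb over Pdgfra and Icam1 over Dpp4 separate all HFD from all chow libraries, while Ly6a over Cd34 and Pi16 over Dpp4 overlap.

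Pi16 (Entrez 74116, chromosome 17, 29318796 to 29328903), which encodes a secreted peptidase inhibitor of interstitial progenitors, had the widest SE of the 10 genes in every comparison. It stood at 54.36, 27.37, 31.37 and 48.42 FPKM in chow WT and 14.95, 53.35, 16.41 and 69.56 FPKM in HFD WT. In KO-labelled mice it stood at 17.25, 11.46, 30.27 and 34.52 FPKM on chow and 10.98, 60.64, 21.68 and 21.43 FPKM on HFD. On either diet, high and low libraries lay within the same group. The diet difference was -0.31 in WT (SE 0.54, 95% interval -1.47 to 0.85, adjusted p = 0.673) and 0.14 in KO (-1.02 to 1.3, adjusted p = 0.857). The WT sign turned without HFD WT replicate 1 (0.03), and the KO sign without chow KO replicate 2 (-0.14) or HFD KO replicate 2 (-0.30).

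Pi16 and Dpp4 mark the same interstitial cells. Pi16 was 2.42 to 4.81 times Dpp4 in chow WT, 0.702 to 3.40 times in chow KO, 2.07 to 11 times in HFD WT and 1.36 to 7.09 times in HFD KO. The log2 ratio differed by 0.64 between diets (exact permutation p = 0.161, adjusted p = 0.276) and by -0.75 between genotypes (p = 0.104, adjusted p = 0.209). Of 12 other listed interstitial markers 10 were tested, with 1 lower in each genotype and 0 higher. Among all genes 17.2% were lower and 24.6% higher in WT, and 15.3% lower and 23.5% higher in KO. Igfbp6, a binding protein of insulin-like growth factors, fell by 0.85 in WT. That call ended without chow WT replicate 1 (-0.66, adjusted p = 0.116) or 3 (-0.83, 0.0741), without HFD WT replicate 1 (-0.67, 0.098) or 3 (-0.67, 0.12), with array weights (-0.60, 0.0558) and with no filter on low values (-0.85, 0.0607). Dact2, a Wnt pathway regulator, fell by 1.33 in KO. Its call ended without chow KO replicate 2, the library with most epididymal RNA (-0.91, adjusted p = 0.0591), without HFD KO replicate 1 (-1.10, 0.0772) or 3 (-1.16, 0.0702), without the 2 libraries with most epididymal RNA (-0.96, 0.0625) and when the KO groups were fitted alone (0.0772). Cd55, a complement inhibitor used to sort these cells, differed by -0.15 and -0.06, and Wnt2 and Bmp7 were under the filter.

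Cd34 (Entrez 12490, chromosome 1, 194938821 to 194961292), a sialomucin of progenitors and endothelium, ranged from 39.22 to 78.72 FPKM on chow and from 30.20 to 76.95 FPKM on HFD. Ly6a (Entrez 110454, chromosome 15, 74994877 to 74998031), which encodes the sorting antigen SCA-1, ranged from 74.33 to 168.19 FPKM on chow and from 71.29 to 180.25 FPKM on HFD. Neither passed in any comparison. Diet differences were 0.20 in WT (95% interval -0.36 to 0.75) and -0.39 in KO (-0.95 to 0.16) for Cd34, and 0.29 (-0.34 to 0.91) and -0.14 (-0.76 to 0.49) for Ly6a. Ly6a was 1.66 to 2.21 times Cd34 in chow WT, 1.02 to 3.15 times in chow KO, 1.41 to 4.14 times in HFD WT and 1.77 to 2.7 times in HFD KO. The groups overlapped, and the log2 ratio differed by 0.17 between diets (exact permutation p = 0.496, adjusted p = 0.661). Of the 9 other Ly6 genes listed, 5 were tested and 0 passed in either diet comparison, where 41.9% (WT) and 38.9% (KO) of all genes did. Ly6h, at 0.87 in WT (adjusted p = 0.0547), was called higher there under 12 of 28 alternatives, among them without chow KO replicate 2 (0.87, adjusted p = 0.00504), which belongs to neither group. Podxl and Podxl2, the relatives of Cd34, did not pass in either genotype (-0.72 to -0.05).

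Of 20 further matrix and surface genes of fibroblasts tested, 12 rose and 2 fell in WT (median difference 1.1), and 13 rose and 1 fell in KO (median 1.37). The shares over all genes were 24.6% higher and 17.2% lower in WT, and 23.5% higher and 15.3% lower in KO. The summed level of the 20 genes, in which abundant genes weigh most, went the other way in WT. It was 5315 to 6188 FPKM in chow WT and 3889 to 4265 FPKM in HFD WT. In KO the sums overlapped, at 3594 to 6125 FPKM on chow and 3495 to 5108 FPKM on HFD. Pcolce, which helps process procollagen, rose by 1.82 and 1.80, Mmp2, a gelatinase of fibroblasts, by 1.57 in either genotype, and S100a4, a protein of fibroblasts and macrophages, by 2.37 and 1.96. Timp1, an inhibitor of metalloproteinases, rose by 3.68 and 4.15, and Postn, the matricellular protein periostin, by 2.32 and 2.81. Those that fell were Gsn (gelsolin; -1.89 in WT, -1.68 in KO) and Dpt (dermatopontin; -1.17 in WT). Dpt, whose protein binds decorin, differed by -0.22 in KO (adjusted p = 0.544), and its diet effect did not differ between genotypes past the test (0.95, adjusted p = 0.38). Of 7 genes given to the regulatory stromal cells of fat, 1 rose and 2 fell in WT, beside 24.6% and 17.2% of all genes. In KO 3 rose, beside 23.5% of all genes. In WT Fmo2 (-2.18) and Gdf10 (-1.18) fell and Clec11a rose (0.89), and in KO the 3 were F3 (0.59), Cygb (0.94) and Igfbp3 (1.18). The Fmo2 and Cygb calls held under all 29 alternatives. The Gdf10 call ended without any 1 chow WT library or HFD WT replicate 2 or 3 (-0.87 to -1.26, adjusted p from 0.0534 to 0.129), and the Clec11a call without chow WT replicate 2, 3 or 4, HFD WT replicate 2, 3 or 4 or chow KO replicate 1 (0.74 to 0.93, adjusted p from 0.0505 to 0.121). The F3 call ended without chow KO replicate 4 or HFD KO replicate 1 or 3 (0.48 to 0.57), and the Igfbp3 call without replicate 1, 3 or 4 of chow KO, without replicate 2 or 4 of HFD KO (0.91 to 1.15) and without the 3 libraries with epididymal RNA (0.75, adjusted p = 0.071). F3 was also not called with median-of-ratios scaling (0.49, adjusted p = 0.0842) or quantile normalization (0.46, 0.0762), nor Gdf10 with constant sum per library (-1.10, 0.0512). With no filter on low values the calls of Gdf10 (adjusted p = 0.0638), Clec11a (0.0715) and Igfbp3 (0.0669) ended. The Igfbp3 call also ended when the KO groups were fitted alone (0.102).

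Without those 3 libraries, which left HFD KO replicates 1 and 3, the KO comparison called more genes of most stromal lists. It also called more of all 12667 tested genes, 6346 where the main fit called 4922. Calls over all genes went from 5304 to 6435 in WT and from 37 to 65 for the interaction. The matrix genes went from 13 higher and 1 lower to 16 and 2, the interstitial markers from 0 and 1 to 1 and 2 (Fn1, fibronectin, higher by 1.11; Ackr3, a chemokine receptor, lower by 0.98), the proteoglycans from 1 and 2 to 2 and 2 (Aspn, asporin, 1.08), the ICAM relatives and partners from 4 higher to 5 (Icam2, 0.63), and the preadipocyte markers from 4 lower to 5 (Lpl, -1.09). Among the regulatory genes 2 were then higher and 1, Fmo2, was lower (-1.50). Among markers of other cells, mural genes went to 2 higher and 1 lower (Higd1b, -0.97, while Tagln was lost), T and NK markers to 1 lower (Cd2, -0.81) and adipocyte markers from 9 lower to 10. In WT, whose libraries were all kept, the proteoglycans went from 2 lower to 4 (Omd and Fmod added), mural genes from 0 lower to 2 (Acta2 and Higd1b), T and NK markers from 4 lower to 5 (Cd4) and the Cd34 relatives from 0 lower to 1 (Podxl2, -0.72), with differences as before and a smaller pooled spread. Higher calls in WT grew as well, for matrix genes from 12 to 13 (Cthrc1, 1.15), for endothelial markers from 0 to 1 and for Ly6 genes from 0 to 1 (Ly6h, 0.87). Besides Vcam1, the diet effect then differed between genotypes for Fbln2, fibulin-2 (1.35, adjusted p = 0.0394), and Aspn (0.98, adjusted p = 0.0325).

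Between genotypes, 0 of the 10 genes passed on chow, where 1.41% of all genes did, and 0 on HFD, where 0.0316% did. None had an unadjusted limma p under 0.05 either, against 14.7% and 11.8% of all genes, and 0 had groups that did not overlap, against 15.2% and 6.83%. The 95% intervals still allow differences. On chow the widest was that of Pi16, from 40.4 ± 13.0 FPKM in WT to 23.4 ± 10.8 FPKM in KO (SD, n = 4; -0.83, interval -1.99 to 0.33, adjusted p = 0.516). Cd34 stood at 47.5 ± 11.2 and 66.2 ± 14 FPKM (0.47, interval -0.08 to 1.03, adjusted p = 0.431). On HFD the differences ran from -0.38 (Pi16) to 0.34 (Pdgfra and Dpp4), and adjusted p from 0.542 to 0.941. The diet effect did not differ between genotypes past the test for any of the 10 genes (0.292% of all genes passed; adjusted p from 0.589 to 0.970), and 0 had an unadjusted p under 0.05, against 10.1% of all genes. The largest such terms were -0.69 for Lum (interval -1.59 to 0.20), -0.59 for Cd34 (-1.37 to 0.20) and 0.58 for Dcn (-0.10 to 1.25).

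**Figure D4:**
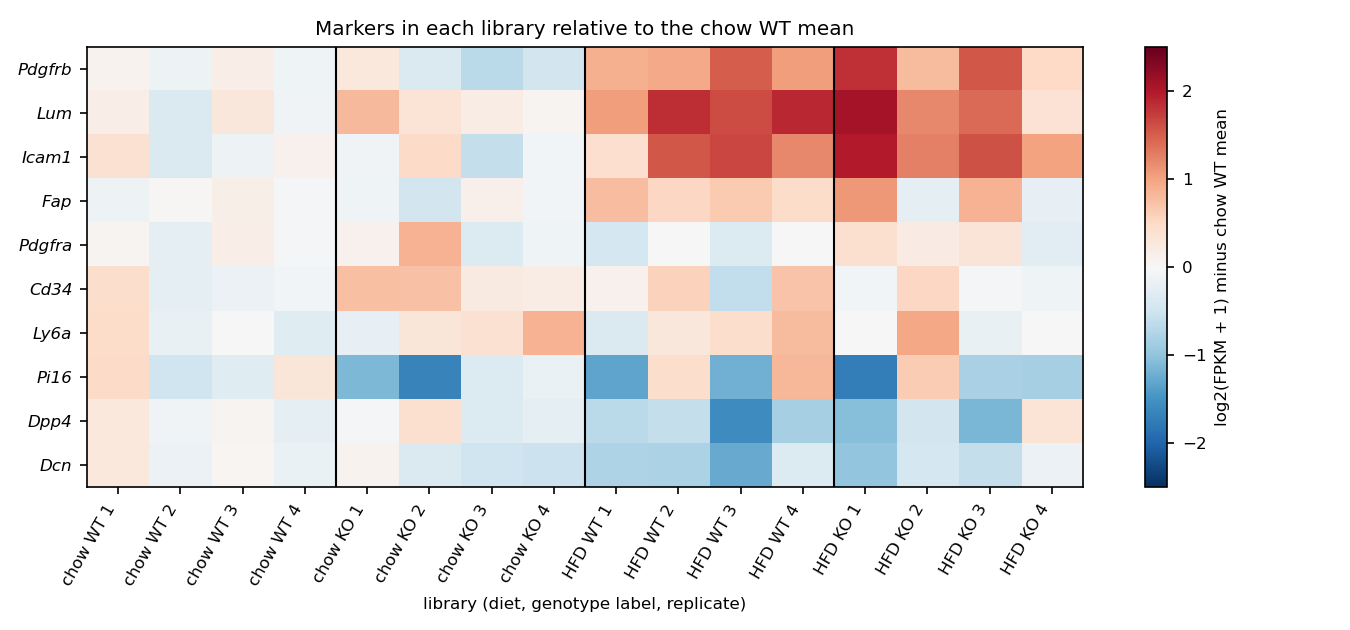
Each of the 10 genes (rows) in each of the 16 libraries (columns, black lines between groups), as log2(FPKM + 1) minus the chow WT mean; red is higher and blue lower. Pdgfrb, Lum and Icam1 are red across HFD, Dpp4 and Dcn are blue in HFD WT, and HFD KO replicate 4 is nearer to chow than HFD KO replicate 1.

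The 8 HFD libraries were not alike. HFD KO replicate 1 had the highest Pdgfrb (38.93 FPKM), Lum (156.60 FPKM), Fap (7.54 FPKM) and Icam1 (22.90 FPKM) of the 16 libraries, and the lowest Pi16 (10.98 FPKM). It also had the lowest adipocyte sum (996 FPKM) and a macrophage sum of 10226 FPKM. HFD WT replicate 3, with the highest macrophage sum (10803 FPKM), had the lowest Dpp4 (3.42 FPKM), Dcn (366.13 FPKM) and Cd34 (30.20 FPKM) of all libraries. HFD KO replicate 4, where 1.26% of FPKM came from epididymal genes, had the lowest Pdgfrb and Lum on HFD and the highest Dpp4 and Dcn, with a macrophage sum of 3201 FPKM. HFD WT replicate 1 had the lowest macrophage sum (2328 FPKM) and the highest adipocyte sum (8389 FPKM) on HFD. Its Icam1 (7.18 FPKM) was the lowest on HFD, but its Fap (5.87 FPKM) was the highest of HFD WT. Its Pdgfrb (20.01 FPKM), Dpp4 (7.23 FPKM) and Dcn (520.07 FPKM) lay between those of other HFD libraries. The part of cell makeup in these differences was not tested.

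After each group's mean was subtracted, Pearson's r between pairs of the 10 genes over 16 libraries was computed. Of 45 pairs, 10 had r above 0.5 and 3 below -0.5. The highest were Pdgfrb with Lum (0.80), Pdgfra with Icam1 (0.71), Dpp4 with Dcn (0.70), and Pi16 with Ly6a and Cd34 with Dcn (0.69 each). The lowest were Dpp4 with Fap (-0.73), Pdgfrb with Dpp4 (-0.62) and Dcn with Fap (-0.54), and Pi16 with Dpp4 was at 0.15. Over the 13 libraries without epididymal RNA, 13 pairs were above 0.5 and 5 below -0.5, and the order changed. Dpp4 with Fap was then at -0.21, Pdgfrb with Dpp4 at -0.16 and Pdgfrb with Fap at -0.09 (0.67 over all libraries). Cd34 with Dcn (0.86), Pdgfra with Lum (0.83) and Dpp4 with Cd34 (0.82) were highest, Pi16 with Fap (-0.69) was lowest, Pdgfrb with Lum was at 0.64 and Dcn with Fap stayed at -0.54. These values share libraries and depth, and are given with no test.

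By the same measure, the genes most like each of the 10 among the tested genes were as follows, with predicted genes (Gm, Rik and LOC names) left out. For Pdgfrb they were Adamts15 (r = 0.967), a protease of the matrix, Jak1 (0.961), a cytokine receptor kinase, and Fkbp10 (0.943), a collagen chaperone. For Fap they were the collagen V chains Col5a2 (0.912) and Col5a1 (0.910) and Edem1 (0.908), but without the 3 libraries with epididymal RNA these fell to between 0.220 and 0.484. For Icam1 they were Map3k11 (0.957), a kinase upstream of JNK, Shkbp1 (0.953) and Exo5 (0.952), and for Lum Sntb2 (0.951), Sipa1l2 (0.937) and Entpd1 (0.930), the ectonucleotidase CD39. For Dpp4 they were Lrrc1 (0.960), Dcaf11 (0.912) and Tsr2 (0.906), and for Dcn Magi3 (0.923), Cbx8 (0.913) and Ddx59 (0.903). Pi16 was most like Lrrn4cl (0.911), Krtdap (0.864) and Sdhc (0.855), and Cd34 most like Tmem100 (0.911), an endothelial membrane protein, Zbtb7c (0.903) and Nbl1 (0.879). Pdgfra was most like Raph1 (0.944), Armcx3 (0.932) and Rpgrip1l (0.921), and Ly6a, with the lowest values of the 10, Hdhd5 (0.842), Foxc1 (0.810) and Plac8 (0.802). Each triplet was picked as the top of the 12667 tested genes, predicted ones left out, over 16 libraries, and 0 of the other 9 genes was in any of them.

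Some limits touch the values themselves. The sources used here do not give the libraries' strand, and the exons of Pdgfra, Dpp4, Pi16, Cd34 and Icam1 overlap those of genes on the opposite strand, whose reads cannot be told apart from theirs without it. In a search of the annotated transcripts, 0 of the 100-base stretches of any of the 10 genes occurred in another gene.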

How the data were processed

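The authors deposited 1 table of FPKM values for 16 libraries. Per the submitters' processing notes, STAR 2.7 and the builds GRCm38.p6 and mm10 were used; the sources used here do not say how FPKM were computed. The table holds no counts, so depth per library is unknown; FPKM summed to 413167 to 468186, and 11554 to 13184 genes stood at 1 FPKM or more. Of 34510 rows, 14408 circular RNA entries and 1 row with no name were left out, leaving 20101 genes, of which 19945 matched the reference by Entrez number.

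Differences were fitted with limma 3.58.1 (R 4.3.3) on log2(FPKM + 1), with a variance trend, over all 16 libraries as 4 group means. Genes with at least 1 FPKM in at least 4 libraries were tested (12667), with Benjamini-Hochberg adjustment over all of them. Ratios of 2 genes within a library were tested by exact permutation within the other factor. The fit was tested on simulated data. The labels number the mice of each group, but do not say that numbers are shared, and p-values measure the spread between these samples.

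The 10 genes and the other lists were chosen with earlier results of these data known. By rule, up to 3 genes of each other list with the smallest p among those called in WT were named, and 3 genes most like each of the 10. Other list genes named were chosen after their values were seen. Alternatives covered the pseudocount, filter, scaling, variance trend, weights, replicate block, threshold, groups fitted alone and libraries left out. The correlations without the 3 libraries with epididymal RNA were added after the data were seen.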

Additional observations from a re-analysis of the deposited data

Results flagged for a closer look

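In HFD KO replicate 2, Cd34 stood at 66.81 FPKM and Ly6a at 180.25 FPKM, each set apart from the other 3 libraries of its group by most of the group's range (a share of 0.898 and 0.879, above Dixon's 95% critical value for 4 samples). These were 2 of 40 groups of 4 examined, and chance alone sets apart about 1 in 20. The same library held the highest mural sum of the 16, 1288 FPKM, and 0.0792% of its FPKM came from epididymal genes; their part in the 2 values was not tested.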

How the results depend on the processing

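In WT-labelled mice Pdgfrb, Lum, Icam1 and Dcn kept their calls under every alternative run, and 4 to 6 of the 10 genes were called with 1 library left out. In KO-labelled mice Pdgfrb and Icam1 kept theirs. The count of the 10 genes called moved from 3 to 6 with array weights, 5 without the 2 libraries with most epididymal RNA and 6 without all 3. It was 2 to 5 with 1 library left out. Calls over all 12667 tested genes moved too, in KO from 4922 to 7496 with array weights, 6257 without the 2 and 6346 without the 3. With 1 library left out they ran from 3717 to 5613 in KO and from 4164 to 5811 in WT. Scaling by median of ratios, constant sum or quantiles left the calls of the 10 genes at 3 higher and 2 lower in WT and 3 higher and 0 lower in KO, while quantile scaling moved the median of all genes by -0.104 and -0.149, and the share of all called genes that were higher from 58.8% to 45.8% in WT and from 60.5% to 42.3% in KO (52.9% and 49.7% by median of ratios). In the genotype comparisons and the interaction 0 of the 10 genes were called under any alternative.

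Replicate numbers did not pair the libraries: deviations from the group means correlated at a median of -0.00243 over 24 same-numbered pairs, 8 of them over 0.1, and 4 of 16 libraries correlated best with their own number. With a replicate block, 6 genes were called in WT and 3 in KO. The genotype difference of Pdgfrb over Pdgfra, -0.35, did not pass in the main test (exact permutation p = 0.0918, adjusted p = 0.209). It passed only with the replicate block (adjusted p = 0.0343). Since the numbers did not pair the libraries, no genotype difference in this ratio is drawn from the blocked value.

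Differences that turned direction belonged to genes or ratios that were not called, and the cause was not tested. For Pi16 the diet difference was 0.02 in WT with array weights, and in KO -0.37 with array weights, -0.09 without the 2 and -0.73 without the 3 epididymal libraries; its interaction was -0.39 and -0.42 with array weights and without the 3. Pdgfra in KO was at -0.08 with median-of-ratios and -0.15 with quantile scaling, and between genotypes on chow at -0.09 with array weights and -0.11 without the 2 or the 3. Between genotypes on HFD, Pdgfrb was at -0.08 with median-of-ratios scaling, Dpp4 at -0.10 and Fap at 0.21 with array weights, and without the 3 libraries Dpp4 was at -0.19, Lum at 0.14 and Fap at 0.38. The Fap interaction was 0.25 with array weights and 0.39 without the 3.

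Without the 2 and the 3 libraries, the genotype difference of Fap over Dpp4 was 0.07 and 0.38, and that of Icam1 over Dpp4 0.16 and 0.36; that of Ly6a over Cd34 was 0.00 without the 2. With 1 library left out, the diet difference of Fap over Dpp4 ranged from 1.08 to 1.53, and genotype differences from -0.23 to 0.18 for Icam1 over Dpp4, -0.17 to 0.26 for Lum over Dcn and -0.18 to 0.11 for Ly6a over Cd34. Left out in the same way, diet differences ranged from -0.69 to 0.03 for Pi16 in WT and, in KO, from -0.30 to 0.49 for Pi16, -0.13 to 0.27 for Pdgfra and -0.39 to 0.04 for Ly6a. Genotype differences on chow ranged from -0.11 to 0.29 for Pdgfra, -0.20 to 0.05 for Dpp4 and -0.24 to 0.11 for Icam1. On HFD they ranged from -0.15 to 0.29 for Pdgfrb, -0.81 to 0.00 for Pi16, -0.39 to 0.05 for Cd34, -0.34 to 0.08 for Ly6a and -0.02 to 0.40 for Icam1, and the Fap interaction from -0.33 to 0.11. Depth is unknown, so counting error could not be separated from the spread between mice.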
